A study of Mus musculus with 4 samples.

Results

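C-type lectin receptors are membrane proteins through which myeloid cells bind sugars and other ligands of microbes, damaged cells and neighbouring cells. Expression of 10 of them was compared between MYC-deficient and MYC-WT bone marrow-derived macrophages (BMDMs) after 1 day of RANKL, a cytokine that drives macrophages towards osteoclasts. The receptors were taken by gene symbol (Clec4a1, Clec4a2, Clec4a3, Clec4d, Clec4e, Clec4n, Clec5a, Clec7a, Clec10a and Clec12a), and all 10 were found among the 28443 genes of the count table. RNA-seq was run on 4 libraries of cells grown from the marrow of 8-week-old mice, cultured with M-CSF and given 50 ng/ml RANKL. The MYC-deficient group (strain MYC f/fLysM cre, genotype MYC cKO, 2 libraries) carried floxed Myc alleles deleted by LysM-Cre, and the MYC-WT group (strain LysM cre, genotype WT, 2 libraries) carried the same Cre without floxed alleles. Cre was therefore shared by both groups, as was RANKL. LysM-Cre is a knock-in of the Lyz2 locus and is active in myeloid cells, so the deletion was not limited to osteoclast precursors. The series' design calls the replicates biological and does not say whether libraries of the same number came from the same day. P-values judge the difference between genotypes against the spread between these libraries.

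As general background, activating members reach the kinase SYK through an immunoreceptor tyrosine-based activation motif (ITAM), carried by the adaptors FcRγ (Fcer1g) or DAP12 (Tyrobp) or, for Dectin-1 (Clec7a), by a single ITAM-like motif of the receptor itself, and SYK then signals through CARD9 to NF-κB and through calcium to NFAT. Inhibitory members carry an inhibitory motif (ITIM) that recruits phosphatases such as SHP-1 (Ptpn6). In osteoclast precursors the same FcRγ and DAP12 adaptors give the costimulatory calcium signal that acts with RANKL to induce NFATc1, the master transcription factor of osteoclasts.

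Libraries held 35794698 and 27544806 counts in MYC-deficient cells and 33234789 and 29146387 counts in MYC-WT cells. Levels are given as counts per 1000000 total counts of a library (CPM). Myc itself had 17.7 and 24.2 CPM in MYC-deficient libraries, against 230 and 250 CPM in MYC-WT libraries (log2 fold change -3.49). The macrophage genes Csf1r (1883 and 1798 CPM in MYC-deficient libraries, against 1258 and 1049 CPM in MYC-WT libraries) and Adgre1, which encodes F4/80, were abundant, whereas Lyz2 had 9.44 and 11.3 CPM in MYC-deficient libraries and 19.0 and 9.30 CPM in MYC-WT libraries. Of the early osteoclast genes implied by the labelled cell type, Nfatc1 and Acp5 were present in all 4 libraries, while Calcr, the calcitonin receptor of mature osteoclasts, had no count. Genotypes lay apart on principal component 1, with 68.5% of the variance, and in each genotype replicate 1 lay apart from replicate 2 on principal component 2, with 24.2%.

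To show the sequence at which these genes start, promoter windows of RefSeq (GRCm38.p6, 250 bases before to 50 bases after each start) were matched by symbol to 8 of the 10 receptors, all but Clec4n and Clec10a. They were searched on both strands for the canonical E-box CACGTG, the motif of MYC with its partner MAX, for GAGGAA, the core bound by the myeloid factor PU.1 and related ETS factors, and for TGANTCA, the AP-1 motif. No matches overlapped each other. The E-box was in 0 of the 8 promoters, and in 8.09% of all genes with a window. GAGGAA or its complement TTCCTC was in 7 of the 8, all but Clec4a2, and in 31.3% of all genes. The AP-1 motif was in the promoters of Clec12a and Clec4a2, and in 8.97% of all genes. For each receptor with GAGGAA or TTCCTC in the 100 bases before a RefSeq start, those 100 bases are shown once per gene, 5′ to 3′ on the strand of the gene, with the motif in capitals. They are chr6:40585806-40585905 (minus strand) for Clec5a, chr6:129350144-129350243 (plus) for Clec12a, chr6:129472780-129472879 (minus) for Clec7a, chr6:122952544-122952643 (plus) for Clec4a3 and chr6:123289872-123289971 (minus) for Clec4e.
Clec5a: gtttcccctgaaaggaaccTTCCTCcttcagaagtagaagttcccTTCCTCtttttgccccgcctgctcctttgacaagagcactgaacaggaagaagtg
Clec12a: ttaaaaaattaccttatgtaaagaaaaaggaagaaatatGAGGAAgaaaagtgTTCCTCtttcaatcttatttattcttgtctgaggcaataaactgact
Clec7a: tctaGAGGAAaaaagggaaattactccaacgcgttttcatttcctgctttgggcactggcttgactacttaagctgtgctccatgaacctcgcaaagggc
Clec4a3: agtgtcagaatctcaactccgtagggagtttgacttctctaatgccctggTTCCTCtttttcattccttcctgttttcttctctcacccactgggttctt
Clec4e: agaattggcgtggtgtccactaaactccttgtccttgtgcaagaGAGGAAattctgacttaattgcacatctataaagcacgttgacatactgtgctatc
In Clec5a the pair of matches begins 81 and 55 bases before the start, and in Clec12a a match in each direction begins 61 and 47 bases before it. A match shows only that these letters are in the window. Spi1, the gene of PU.1, had 481 and 535 CPM in MYC-deficient libraries and 505 and 541 CPM in MYC-WT libraries (log2 fold change -0.02 ± 0.13, SE).

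Of the 10 receptors, 7 were higher in MYC-deficient cells, 0 were lower and 3 did not pass the test. A call required a change of over 1.5-fold with an adjusted p under 0.05 in edgeR's quasi-likelihood test with Benjamini-Hochberg adjustment over the 13436 genes with enough counts, and 6.06% of those genes were called higher and 9.91% lower. No receptor was lower at an unadjusted p under 0.05 or with DESeq2, which called 7 higher. The log2 fold change was positive for 10 of 10 receptors, against 49% of all tested genes, with a median of 0.93, against -0.01 over all tested genes. For 8 receptors both MYC-deficient libraries lay above both MYC-WT libraries, as they did for 27.5% of all tested genes, and for 0 receptors both lay below, as for 35.9% of all tested genes. The receptors were chosen with earlier results of these data known, so these shares are no independent test of the list. Together the 10 receptors took 2020 and 2099 CPM in MYC-deficient libraries and 1121 and 1079 CPM in MYC-WT libraries. In a bulk culture, more cells of a type and more RNA per cell cannot be told apart.

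Fewer receptors were called when a MYC-WT library was dropped than when a MYC-deficient library was. Without MYC-WT replicate 2 the quasi-likelihood test called 0 receptors (8 at an unadjusted p under 0.05, no other tool run on 3 libraries), and without MYC-WT replicate 1 it called 2, Clec5a and Clec4n. The share of all genes called also fell, to 1.87% in the fit lacking MYC-WT replicate 2 and 7.17% in that lacking MYC-WT replicate 1, against 16% with all 4 libraries. Without MYC-deficient replicate 1 there were 8 called receptors, Clec4e being added, and without MYC-deficient replicate 2 there were 7, Clec4d being lost and Clec4a1 gained. When the fold of 1.5 was tested within the model (glmTreat) only Clec5a was called.

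**Figure D1:**
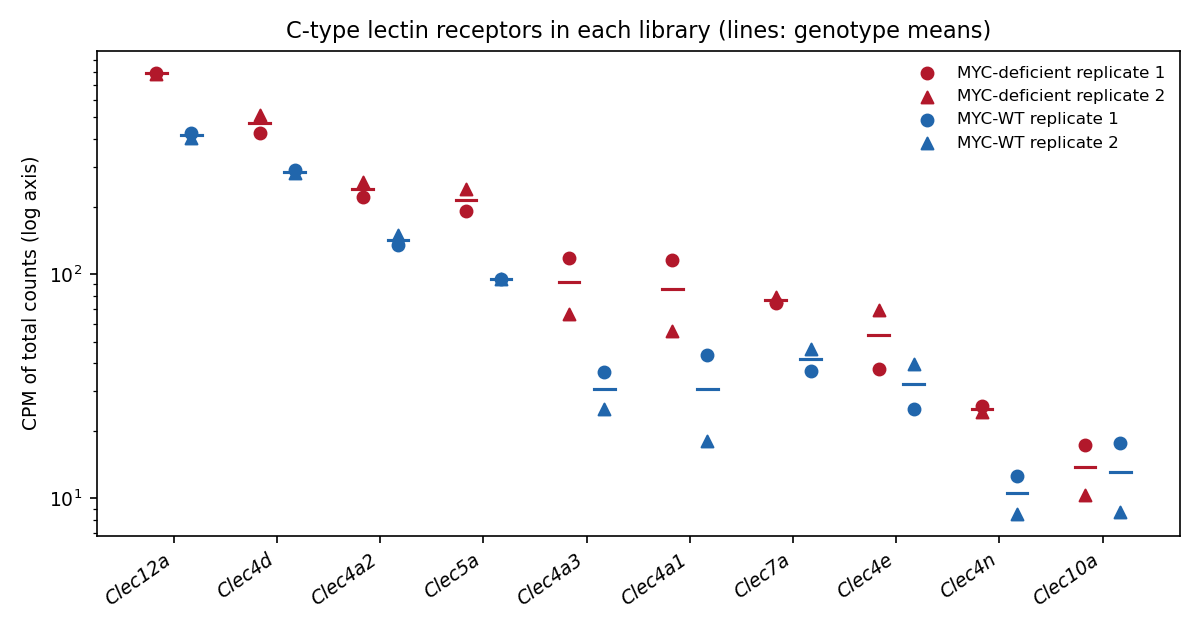
CPM of total counts (log axis) of the 10 receptors in each library, MYC-deficient in red to the left of MYC-WT in blue, with circles for replicate 1, triangles for replicate 2 and lines for the mean of each genotype. Both red points lie above both blue points for 8 genes, and the colours overlap for Clec4e and Clec10a.

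Among the activating receptors, Clec5a, which encodes MDL-1, a receptor that pairs with DAP12 and DAP10, had the lowest adjusted p together with Clec12a. It had 191 and 239 CPM in MYC-deficient libraries, against 95.2 and 94.8 CPM in MYC-WT libraries. The MYC-WT libraries nearly coincided and the MYC-deficient libraries lay at least 2.0-fold above them, giving a log2 fold change of 1.21 ± 0.15 (SE, edgeR adjusted p = 0.0110). The gene is on chr6:40574894-40585821 of mm10, away from the other receptors.

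Clec4n encodes Dectin-2, which binds fungal mannans and signals through FcRγ. Clec4n was a low-level gene, with 25.7 and 24.4 CPM in MYC-deficient libraries and 12.5 and 8.54 CPM in MYC-WT libraries. The groups lay apart, and the log2 fold change was 1.28 ± 0.20 (SE, edgeR adjusted p = 0.0171). Clec7a, which encodes the β-glucan receptor Dectin-1, had 74.1 and 79.4 CPM in MYC-deficient libraries and 36.8 and 46.4 CPM in MYC-WT libraries. Its libraries did not overlap, and the lowest of the 4 ratios of a MYC-deficient to a MYC-WT library was 1.60 (log2 fold change 0.91 ± 0.16, SE, edgeR adjusted p = 0.0204). The deposited table lists Clec7a as a polymorphic pseudogene, a biotype for genes that are coding in some strains only.

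Clec4d and Clec4e, which encode MCL and Mincle, are neighbours that both use FcRγ, and their proteins can form a heterodimer. Clec4d had 428 and 513 CPM in MYC-deficient libraries, against 291 and 283 CPM in MYC-WT libraries, a change of 0.74 ± 0.14 on the log2 scale (SE, edgeR adjusted p = 0.0246). Clec4e, the receptor of the mycobacterial glycolipid trehalose dimycolate, had 37.8 and 69.3 CPM in MYC-deficient libraries and 25.1 and 39.9 CPM in MYC-WT libraries. Here the groups overlapped, since replicate 2 was the higher library in both genotypes and MYC-WT replicate 2 exceeded MYC-deficient replicate 1. The log2 fold change of Clec4e was 0.75 ± 0.37 (SE, edgeR adjusted p = 0.206), close in size to that of Clec4d with a wider error. Without MYC-deficient replicate 1 Clec4e was called, at a log2 fold change of 1.16 (edgeR adjusted p = 0.0179), and over the 4 fits that left out a library its value ranged from 0.23 to 1.16.

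Among the inhibitory receptors, Clec12a encodes MICL, an ITIM receptor of dead cells and uric acid crystals. It had more counts than any other of the 10 receptors in every library, with 790 and 784 CPM in MYC-deficient libraries and 428 and 406 CPM in MYC-WT libraries. Replicates of Clec12a differed by 1.01-fold in MYC-deficient cells and 1.05-fold in MYC-WT cells, and the log2 fold change was 0.95 ± 0.11 (SE, edgeR adjusted p = 0.0110). Clec12a stayed between 0.92 and 0.98 on the log2 scale under all 15 alternative settings. Clec4a2, which encodes the ITIM receptor DCIR1, had 222 and 257 CPM in MYC-deficient libraries and 135 and 149 CPM in MYC-WT libraries, a log2 fold change of 0.78 ± 0.14 (SE, edgeR adjusted p = 0.0208).

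Clec4a3 and Clec4a1 encode further members of the dendritic cell immunoreceptor family, DCIR3 and DCIR4, and had the highest fold changes of the 10, with replicates up to 2.41-fold apart. Clec4a3 had 118 and 66.1 CPM in MYC-deficient libraries, against 36.6 and 25.0 CPM in MYC-WT libraries. The lower MYC-deficient library still exceeded the higher MYC-WT library 1.81-fold, and the log2 fold change was 1.61 ± 0.32 (SE, edgeR adjusted p = 0.0282). Clec4a1 had 116 and 55.5 CPM in MYC-deficient libraries and 43.4 and 18.0 CPM in MYC-WT libraries. Replicate 1 was above replicate 2 by 2.08-fold in MYC-deficient cells and 2.41-fold in MYC-WT cells, so that the groups stayed apart but the log2 fold change of 1.51 ± 0.51 did not pass (SE, edgeR adjusted p = 0.0956). Clec4a1 was called without MYC-deficient replicate 2 (log2 fold change 1.93, edgeR adjusted p = 0.0120).

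Clec10a encodes MGL1, an endocytic receptor for galactose-type sugars found on macrophages and dendritic cells, and lies on chromosome 11 while the other 9 are on chromosome 6. It had 17.4 and 10.3 CPM in MYC-deficient libraries and 17.6 and 8.71 CPM in MYC-WT libraries. The groups overlapped fully and the difference was within the spread between replicates (log2 fold change 0.11 ± 0.39, SE, edgeR adjusted p = 0.872). Its sign turned when MYC-deficient replicate 1 or MYC-WT replicate 2 was left out (-0.28 and -0.30, neither called). Of the 50-base words of its transcripts, 8.49% also occur in transcripts of Mgl2, and 6.15% of those of Clec4a2 also occur in Clec4a4 or Clec4b1, so reads there could have been split or lost, depending on a counting rule that no source used here gives. The other 8 receptors shared no such word with another gene named Clec or with Mgl2, the only lectin genes looked for by name. Of these 8, only Clec4n (0.69% of its words) and Clec12a (0.46%) shared words with any other gene.

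**Figure D2:**
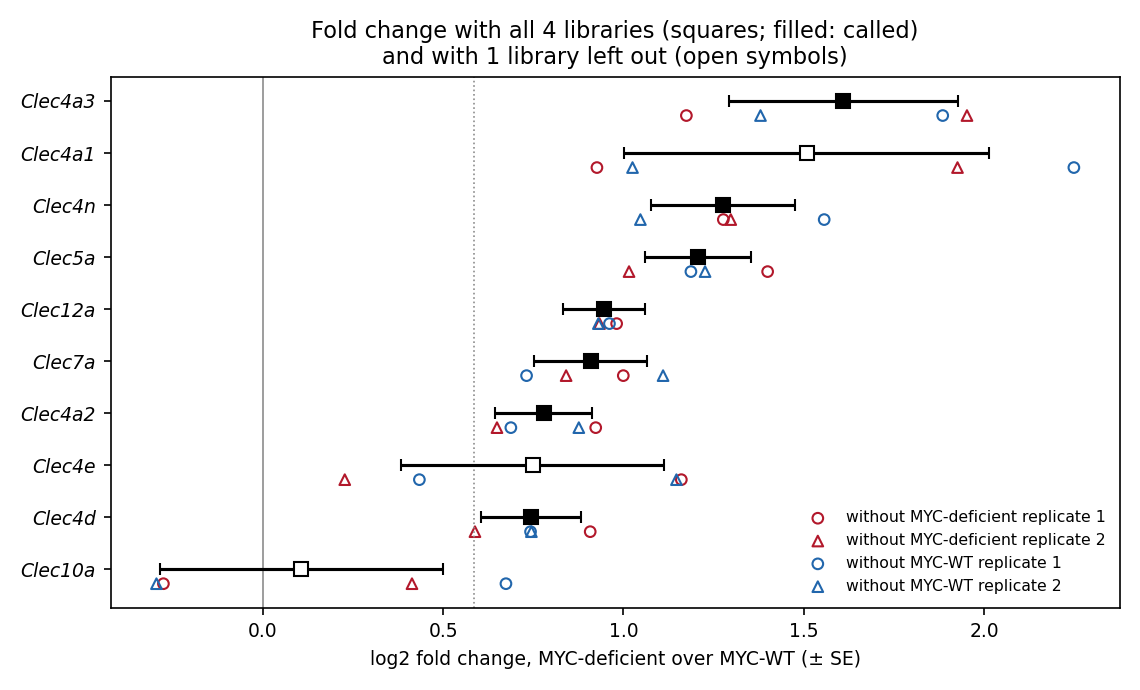
Log2 fold change of MYC-deficient over MYC-WT cells for each receptor with all 4 libraries (squares with SE, filled where called, dotted line at the 1.5-fold threshold) and with 1 library left out (open circles for a replicate 1, open triangles for a replicate 2, red for MYC-deficient, blue for MYC-WT). The open symbols stay close together for Clec12a, from 0.93 to 0.98, and spread most for Clec4a1, from 0.93 to 2.25.

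Levels of different receptors were compared as CPM per kilobase of merged exons. On this scale the order in MYC-deficient cells was Clec4d (mean 294), Clec12a (142), Clec4a2 (81.8), Clec4a3 (69.4), Clec5a (56.0), Clec4a1 (54.9), Clec7a (29.1), Clec4n (17.6), Clec4e (10.8) and Clec10a (4.78). In MYC-WT cells the order was Clec4d (179), Clec12a (75.4), Clec4a2 (48.6), Clec5a (24.7), Clec4a3 (23.2), Clec4a1 (19.7), Clec7a (15.8), Clec4n (7.43), Clec4e (6.54) and Clec10a (4.54). Neighbours from Clec4a2 down to Clec4a1 in the MYC-deficient order overlapped between libraries, as did those from Clec5a down to Clec7a and from Clec4n down to Clec10a in the MYC-WT order, and their ranks were not resolved. In CPM, Clec12a and Clec4d together made up 60.3% and 61.8% of the receptors' total in MYC-deficient libraries and 64.1% and 63.8% in MYC-WT libraries.

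The receptors of the Clec4 family form 1 cluster, and the genes of that cluster were looked at together with their neighbours. From Clec4a1 to Clec4e (chr6:122921848-123289870 of mm10) and within 500 kb on either side, 9 Clec4 genes were tested, 6 of them among the 10 receptors. All 9 log2 fold changes were positive, from 0.74 to 2.73, against 49% of all tested genes. Of the 9, 6 were called, against 6.06% of all tested genes called higher. These counts include the receptors already given. Besides the receptors already given, Clec4a4, the gene of DCIR2, had 6.87 and 5.16 CPM in MYC-deficient libraries and 1.05 and 0.789 CPM in MYC-WT libraries (log2 fold change 2.73 ± 0.29, SE, edgeR adjusted p = 0.00909). Clec4b1, the gene of the activating receptor DCAR1, had 2.01 and 2.87 CPM in MYC-deficient libraries and 0.271 and 0.618 CPM in MYC-WT libraries (2.49 ± 0.48, SE, edgeR adjusted p = 0.0267). Both were far less abundant than the receptors. Clec4b2 (2.58 ± 0.81, SE), named after its value was seen, was not called.

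Of the 12 tested genes of other families in the same window, 2 were called. These were Foxj2, which encodes a forkhead transcription factor (log2 fold change 0.88, edgeR adjusted p = 0.0100), and C3ar1, the gene of the receptor for complement C3a (0.73, edgeR adjusted p = 0.0213), and the other log2 fold changes of that class ranged down to -1.35. Around Clec7a and Clec12a 1 of 12 tested neighbours was higher, Cd69, itself a lectin gene of the same complex. The median log2 fold change of these 12 was 0.57. Around Clec5a the 4 tested neighbours had a median of -0.15 and 0 were called. The median was 0.18 over the 15 tested genes around the Clec4 cluster that were not among the 10 receptors. Over the 53 tested neighbours of Clec10a it was 0.13. Around Clec10a, which was not called, 11 of 53 tested neighbours were higher, among them Cd68, the scavenger receptor gene of macrophages (0.64), and Cxcl16 (0.59). Another 3 of the 53 were lower, Eif4a1 (-0.70), Eif5a (-1.23) and Slc16a13 (-0.66). For all these counts of neighbours, the shares over all tested genes were 6.06% called higher and 9.91% called lower.

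**Figure D3:**
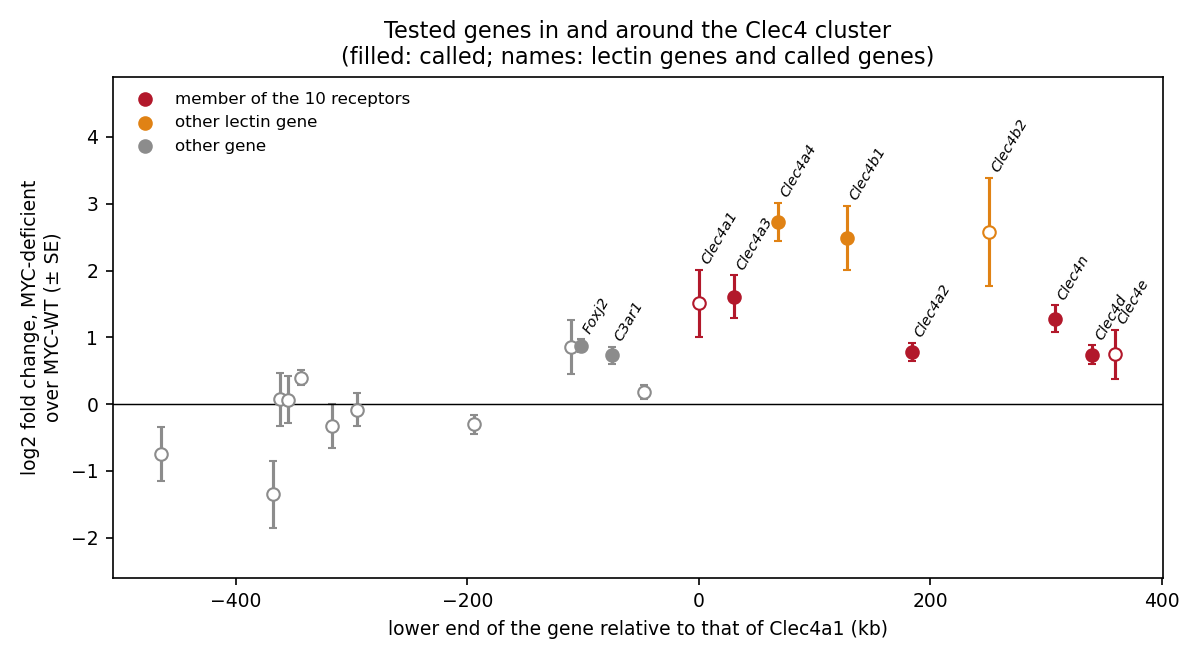
Log2 fold change (MYC-deficient over MYC-WT, ± SE) of the tested genes against the position of their lower end relative to that of Clec4a1, in kb, with the receptors in red, other lectin genes in orange, other genes in grey and filled points for called genes. All 9 lectin genes lie above 0, while the genes to the left of the cluster lie on both sides of it.

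Other genes with a C-type lectin domain were read from a list of 47, of which 23 could be tested. Of these 6 were higher, 0 were lower (0 at an unadjusted p under 0.05 and 0 with DESeq2, which called 8 higher) and 17 did not pass, with a median log2 fold change of 0.92. Besides Clec4a4, Clec4b1 and Cd69 (1.29, edgeR adjusted p = 0.0486, lost without any 1 of the 4 libraries and with DESeq2), the higher genes were Cd93, Klra2 and Cd209a. Cd93, a receptor with roles in clearing dying cells, had 694 and 599 CPM in MYC-deficient libraries and 385 and 240 CPM in MYC-WT libraries (log2 fold change 1.08, edgeR adjusted p = 0.0351). Klra2, of the Ly49 family, had 19.9 and 16.9 CPM in MYC-deficient libraries and 8.85 and 7.79 CPM in MYC-WT libraries (1.17, edgeR adjusted p = 0.0132). Cd209a, a DC-SIGN homologue, was near the limit of detection, with 0.782 and 0.726 CPM in MYC-deficient libraries and 0.0903 and 0.0343 CPM in MYC-WT libraries (3.51, edgeR adjusted p = 0.0155).

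Among the abundant lectins that did not pass was Mrc1, the mannose receptor, with 352 and 140 CPM in MYC-deficient libraries and 238 and 96.7 CPM in MYC-WT libraries. Its groups overlapped, with replicate 1 the higher library in both genotypes (log2 fold change 0.58, edgeR adjusted p = 0.503). Cd72 (0.92, edgeR adjusted p = 0.0514), Clec2d (0.39, edgeR adjusted p = 0.0578) and the scavenger collectin Colec12 (-0.49, edgeR adjusted p = 0.226) did not pass either. The count of higher genes in this list was 3 without MYC-WT replicate 1, 0 without MYC-WT replicate 2 (8 at an unadjusted p under 0.05, edgeR's quasi-likelihood test), 5 without MYC-deficient replicate 1 and 9 without MYC-deficient replicate 2.

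The partners through which the receptors signal were measured in the same libraries. Of 34 genes for adaptors, ITAM kinases and their relays, 4 were higher, 2 were lower and 28 did not pass, with a median log2 fold change of 0.27. Fcer1g, the FcRγ chain used by Clec4d, Clec4e and Clec4n, had 642 and 667 CPM in MYC-deficient libraries and 359 and 356 CPM in MYC-WT libraries (log2 fold change 0.90 ± 0.11, SE, edgeR adjusted p = 0.0117). Tyrobp, the DAP12 partner of Clec5a, had 629 and 741 CPM in MYC-deficient libraries and 467 and 448 CPM in MYC-WT libraries (0.61 ± 0.14, SE, edgeR adjusted p = 0.0381), just past the fold threshold. With total count scaling its log2 fold change was 0.58 and the call ended, as it did in each fit that left out a library other than MYC-deficient replicate 1. Hcst, the DAP10 adaptor, was scarce, with 4.11 and 6.57 CPM in MYC-deficient libraries and 3.10 and 5.15 CPM in MYC-WT libraries, and did not pass (edgeR adjusted p = 0.492). For Clec5a and for the FcRγ-coupled receptors Clec4d and Clec4n both the receptor and an adaptor were higher.

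Among the kinases, Syk had 464 and 443 CPM in MYC-deficient libraries and 290 and 265 CPM in MYC-WT libraries (log2 fold change 0.74, edgeR adjusted p = 0.0159). The Src-family kinase gene Fgr had the largest increase of the list, with 150 and 173 CPM in MYC-deficient libraries and 39.2 and 41.8 CPM in MYC-WT libraries (2.02, edgeR adjusted p = 0.00711). Src itself, the kinase needed for bone resorption, was lower, with 49.1 and 63.2 CPM in MYC-deficient libraries and 127 and 171 CPM in MYC-WT libraries (-1.38, edgeR adjusted p = 0.0166). Nfatc1 was the other lower gene, with 170 and 194 CPM in MYC-deficient libraries and 337 and 395 CPM in MYC-WT libraries (-0.98, edgeR adjusted p = 0.0161). Card9, the relay from SYK to NF-κB, had 57.0 and 57.9 CPM in MYC-deficient libraries and 45.8 and 50.5 CPM in MYC-WT libraries and did not pass (0.28, edgeR adjusted p = 0.145). Without MYC-WT replicate 1 or MYC-WT replicate 2 the number of higher genes in the list was 1, Fgr, and without MYC-WT replicate 2 the number of lower genes was 0 (2 at an unadjusted p under 0.05, edgeR's quasi-likelihood test). The number of higher genes was 5 without MYC-deficient replicate 1 and 3 without MYC-deficient replicate 2.

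**Figure D4:**
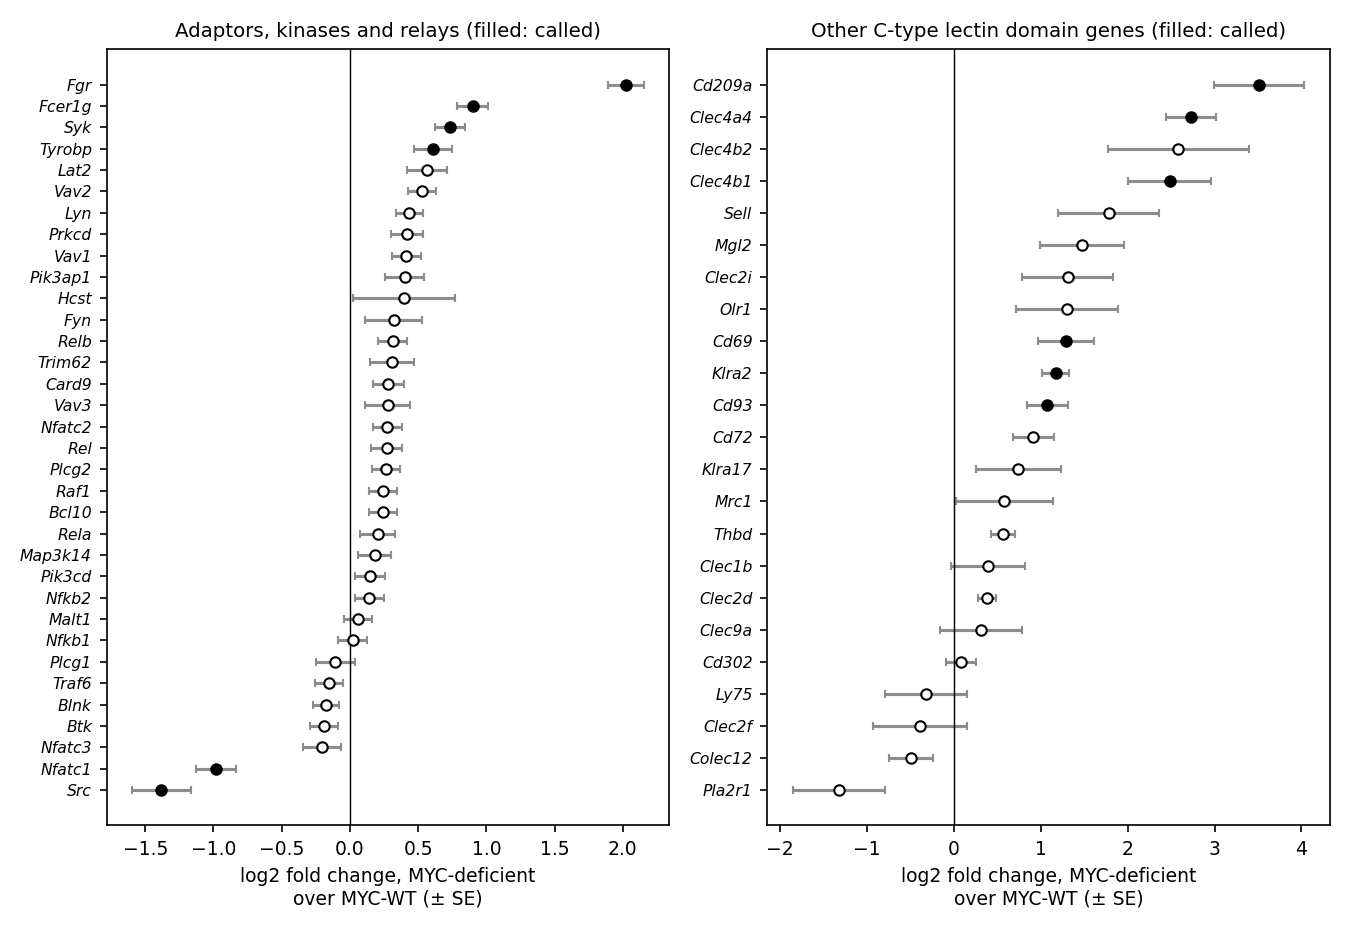
Log2 fold change (MYC-deficient over MYC-WT, ± SE) of the 34 adaptor, kinase and relay genes (left) and of the 23 tested other C-type lectin domain genes (right), ordered by size, with filled points for called genes. Fgr, Fcer1g, Syk and Tyrobp are the filled points above 0 on the left, and Nfatc1 and Src those below it.

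Of 11 genes for ITIM phosphatases and negative regulators 0 were called by edgeR's quasi-likelihood test or by DESeq2, although 3 were higher and 1 lower at an unadjusted p under 0.05. Ptpn6, which encodes SHP-1, had 472 and 512 CPM in MYC-deficient libraries and 342 and 401 CPM in MYC-WT libraries (log2 fold change 0.43, edgeR adjusted p = 0.0919). Inpp5d, which encodes SHIP-1, had 322 and 296 CPM in MYC-deficient libraries and 260 and 257 CPM in MYC-WT libraries (0.28, edgeR adjusted p = 0.125). For both genes the libraries of the genotypes did not overlap, at smaller fold changes than for the ITIM receptors Clec12a and Clec4a2. Of the 11 genes, 5 were higher without overlap, against 27.5% of all tested genes, and 2 lower, against 35.9%. Those 2 were the phosphatase gene Ptpn11 (-0.16, edgeR adjusted p = 0.306) and Socs3 (-0.68, edgeR adjusted p = 0.0733). Ptpn11 had 152 and 155 CPM in MYC-deficient libraries and 172 and 176 CPM in MYC-WT libraries.

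Of 13 tested genes for cytokines and early responses known downstream of these receptors, 2 were higher and 1 was lower. Egr2, an early response gene, had 23.0 and 27.5 CPM in MYC-deficient libraries and 7.40 and 10.1 CPM in MYC-WT libraries (log2 fold change 1.55, edgeR adjusted p = 0.0136). Nlrp3, the inflammasome sensor, had 58.0 and 56.0 CPM in MYC-deficient libraries and 35.2 and 29.9 CPM in MYC-WT libraries (0.84, edgeR adjusted p = 0.0142). Nos2 was lower near the limit of detection, under 0.5 CPM in all 4 libraries. No ligand of the receptors was added in these cultures. Of 8 myeloid transcription factor genes 3 were higher, Irf4 (1.69), Cebpa (0.64) and Cebpb (0.76). Leaving out MYC-WT replicate 2 ended the calls of Nlrp3 and of all 3 transcription factor genes, and leaving out MYC-WT replicate 1 left 1 transcription factor gene called, Cebpa. Leaving out either MYC-deficient library left 2 of them called, and Cebpa was also lost with total count scaling (edgeR adjusted p = 0.0508). Nos2 was called with all 4 libraries and in the fit that left out MYC-deficient replicate 1, not in the other 3 such fits, and DESeq2 gave it an unadjusted p over 0.05 and, because of its low counts, no adjusted p.

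Of 8 macrophage identity genes, 4 were higher and 4 did not pass. The higher ones were Itgam (log2 fold change 1.10), Adgre1 (0.83), Csf1r (0.70) and Cd68 (0.64), and the median of the list was 0.50. Of 9 tested early osteoclast genes 3 were lower, Nfatc1, Ocstamp (-1.17) and Oscar (-2.24), and 1 was higher, Itgb3 (1.47). Oscar was scarce, with 0.223 and 0.436 CPM in MYC-deficient libraries and 1.14 and 1.99 CPM in MYC-WT libraries. Itgb3 was at or under 8.02 CPM. For 6 of the 9 genes both MYC-deficient libraries lay below both MYC-WT libraries, against 35.9% of all tested genes. For 2 both lay above, against 27.5%. The more abundant Acp5 (-1.40, edgeR adjusted p = 0.0710) and Ctsk (-1.51, edgeR adjusted p = 0.104) were among those 6 but did not pass. Without MYC-WT replicate 2 edgeR's quasi-likelihood test called 0 genes of either list, with 3 macrophage genes higher and 3 osteoclast genes lower at an unadjusted p under 0.05, and without MYC-WT replicate 1 only 1 macrophage gene was higher. In the fit that left out MYC-deficient replicate 2, 6 osteoclast genes were lower, and in that without MYC-deficient replicate 1 there were 2. The part of these differences in the receptor levels was not tested.

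Markers of other myeloid cells that express lectin receptors were summed by library, and most of them did not pass the test. Their median log2 fold change was 1.49 for monocyte, 1.44 for neutrophil and 1.08 for dendritic cell markers, against 0.93 for the receptors. Positive values were found for 8 of 9 monocyte, 13 of 13 neutrophil and 9 of 9 dendritic cell markers tested, against 49% of all tested genes. The 9 monocyte markers summed to 306 and 178 CPM in MYC-deficient libraries and 78.9 and 52.2 CPM in MYC-WT libraries. DESeq2 called 4 of these 9 higher, and edgeR's quasi-likelihood test called 2. Of these Ccr2 had 147 and 106 CPM in MYC-deficient libraries and 16.97 and 11.7 CPM in MYC-WT libraries, while the defining marker Ly6c2 had 10.1 and 3.30 CPM in MYC-deficient libraries and 2.41 and 1.48 CPM in MYC-WT libraries. The 14 neutrophil markers summed to 346 and 147 CPM in MYC-deficient libraries and 125 and 56.8 CPM in MYC-WT libraries. Of the 13 tested, edgeR's quasi-likelihood test called only Mmp8, whereas DESeq2 called 5 higher. The defining marker S100a8 had 40.2 and 18.3 CPM in MYC-deficient libraries and 16.0 and 7.41 CPM in MYC-WT libraries, Ngp had 68.7 and 22.8 CPM in MYC-deficient libraries and 26.4 and 10.4 CPM in MYC-WT libraries, and Ly6g was at or under 0.112 CPM in every library. The 10 dendritic cell markers summed to 132 and 299 CPM in MYC-deficient libraries and 28.6 and 68.3 CPM in MYC-WT libraries, mostly Itgax, with 121 and 290 CPM in MYC-deficient libraries and 24.2 and 65.5 CPM in MYC-WT libraries, which macrophages also express. Flt3, Zbtb46 and Xcr1 were at or under 1.52 CPM, and of 9 tested dendritic cell markers 2 were called, Cd209a and Ccl22. DESeq2 called Ccl22 and gave no adjusted p for Cd209a. No defining marker of these 3 cell types was at 0 in all libraries.

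Monocyte and neutrophil sums were higher in replicate 1 of both genotypes, as were Clec4a1, Clec4a3, Clec4n, Clec10a and Clec12a, whereas the dendritic cell sum was higher in replicate 2 of both, as were Clec4a2, Clec4e and Clec7a. These are directions only, and some replicates were nearly equal. Replicate 1 over replicate 2 was 1.01 in MYC-deficient and 1.05 in MYC-WT cells for Clec12a, and 1.06 in MYC-deficient cells for Clec4n. For Clec4a1 it was 2.08 in MYC-deficient and 2.41 in MYC-WT cells. In the fit lacking MYC-deficient replicate 2 the numbers of higher markers were 8 for monocytes and 11 for neutrophils, and lacking MYC-WT replicate 2 the number for monocytes was 1. Of the dendritic cell markers 0 were called by edgeR's quasi-likelihood test without MYC-WT replicate 1 (6 at an unadjusted p under 0.05) and 0 without MYC-WT replicate 2 (3 at that level). The part of these marker levels in the receptor levels was not tested. B cell markers summed to at most 18.7 CPM and those of mast cells, T and NK cells, stroma and erythroid cells to at most 4.89 CPM in any library, with Cd3e at 0 throughout.

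**Figure D5:**
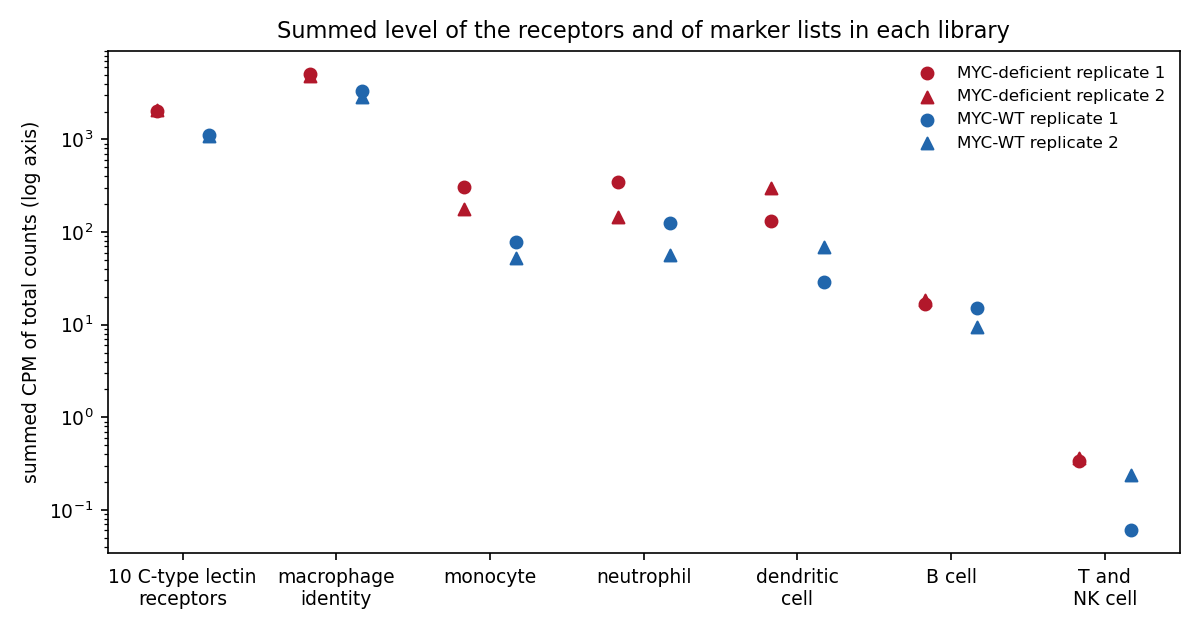
Summed CPM of total counts (log axis) of the 10 receptors and of marker lists in each library, with MYC-deficient in red to the left of MYC-WT in blue, circles for replicate 1 and triangles for replicate 2. The receptors' sum lies at 2020 and 2099 in MYC-deficient libraries and 1121 and 1079 in MYC-WT libraries, above the monocyte, neutrophil and dendritic cell sums in every library, and those 3 lists differ more between replicates than the receptors do.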

How the data were processed

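Raw counts per gene were deposited by the authors for 4 libraries. Names in the submitters' processing notes are STAR 2.7.3a, bcl2fastq 1.8.4, edgeR, fastp and the mm10 build. The counting tool, its use of strand and the annotation behind the counts were not given in the sources used. The authors also deposited the counts of 11109 genes kept by an unstated filter, and log2 CPM of those genes, used only for limma-trend. A filter on low counts (filterByExpr with a minimum count of 10 and a minimum total of 15) was applied, and genes were tested on the deposited counts in R 4.3.3 with edgeR 4.0.16 (TMM scaling, factors 0.982 to 1.02, quasi-likelihood test, 2 residual degrees of freedom). CPM are of total counts without TMM, and each SE was derived as the log2 fold change over the square root of F. The common biological coefficient of variation was 0.167. Replicates differed beyond counting noise, since the chi-square per gene averaged 58.5 for the MYC-deficient pair and 34.6 for the MYC-WT pair, where counting alone gives 1. The script was tested on simulated data.

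Exon lengths, gene overlaps and words of 50 bases come from GENCODE M21, where all 28443 identifiers were found. The one gene overlapping a receptor, the pseudogene Gm44132 at Clec4a2, shares 0 exon bases with it. The receptors and the lists were chosen with earlier results of these data known. A gene of the adaptor and kinase list is not reported here. Named genes are the 10 receptors, Myc, every called gene of the list of other lectins with the 4 most abundant not called, up to 4 genes per direction by smallest adjusted p of each other list, chosen signaling partners, defining markers and called genes within 500 kb of a receptor, of which some of those around Clec10a are given as counts. Alternatives were RLE (relative log expression) or total count scaling, no filter, DESeq2 1.42.0, the genes of the authors' filtered table, the likelihood ratio test, limma-trend (limma 3.58.1), glmTreat, a fold threshold of 2 or none, the replicate block and leaving out each library.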

Additional observations from a re-analysis of the deposited data

How the results depend on the processing

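The log2 fold change stayed positive under all 15 alternatives for 9 receptors, and for Clec10a under 13, turning to -0.28 without MYC-deficient replicate 1 and -0.30 without MYC-WT replicate 2 (range -0.30 to 0.67 with 1 library left out). The number of called receptors stayed at 7 with RLE or total count scaling, the authors' filtered genes, DESeq2, limma-trend and no fold threshold. It was 8 with the likelihood ratio test (Clec4a1 added), 9 without a filter on low counts, 3 with a fold threshold of 2 (Clec5a, Clec4a3 and Clec4n) and 1 with glmTreat. Leaving out 1 library gave 0 to 8 called receptors. The count of all called genes was 2145, with 814 higher and 1331 lower. It was 429 with glmTreat (106 higher, 323 lower), 1038 with a fold threshold of 2 (349 higher, 689 lower) and 1385 higher without a filter. Leaving out 1 library gave 264 to 2159 called genes, 65 to 1011 higher and 199 to 1281 lower. The lone library was then assumed to vary like the other genotype. The cause of these changes was not tested beyond the fewer libraries and stricter thresholds themselves.

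Replicate numbers recur in both genotypes, and same-numbered libraries deviated together (correlation 0.499 over genes), but no source says that a number marks a shared day or animal. With the replicate block 9 receptors were called, Clec4a1 (adjusted p = 0.000444 in edgeR's quasi-likelihood test) and Clec4e (adjusted p = 0.00229, same test) being added, of 3174 called genes with 1400 higher. With the block 7 monocyte and 11 neutrophil markers were higher, against 2 and 1 without it. Counts per receptor and library ranged from 249 to 28294.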
